A study of Homo sapiens with 4 samples.

Results

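The genes of heme synthesis were examined as 9 members, the enzymes ALAS1, ALAS2, ALAD, UROS, UROD, CPOX, PPOX and FECH and the mitochondrial glycine carrier SLC25A38. They were chosen by name, as the rows of the deposited expression table whose Ensembl identifier carries one of these symbols in GENCODE release 44, and they make up 9 of 58735 rows. No other enzyme of the pathway was analysed here. RNA was sequenced from cells labelled NB4, a human cell line derived from acute promyelocytic leukemia. There were 2 libraries from control cells and 2 libraries from cells given GNE-987, a bifunctional degrader directed at BET bromodomain proteins. The labels do not say whether the control cells received a vehicle. The dose of 25 nM and the time of 24 h come from the study and not from the sample labels. All libraries come from the same cell line, the labels do not say whether the replicates were separate cultures, and P values therefore measure the spread between these libraries, which may be technical.

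The label was checked against marker genes. Of 11 promyelocyte and granulocyte markers, 2 reached 1 FPKM in both control libraries, and their summed level was 5.43 and 5.50 FPKM, against 34.2 and 34.1 FPKM with GNE-987. FPKM is the number of fragments per kilobase of gene, scaled to a total for each library, which for these values is given below. MPO, which encodes myeloperoxidase, stood at 0.0246 and 0 FPKM in control cells and at 11.8 and 11.3 FPKM with GNE-987, and ELANE was listed at 0 in both control libraries. Of the 6 markers of this list that were tested, 4 were called higher and 1 lower (CD33, at -1.07 on the log2 scale), while CTSG, S100A8 and S100A9 were listed at 0 in every library. The 2 markers that reached 1 FPKM in both control libraries were AZU1, at 2.07 and 2.10 FPKM there, and LYZ, at 2.02 and 1.59 FPKM. AZU1, LYZ, CD33 and the 3 genes listed at 0 in every library were named after their values were seen. Of 15 erythroid markers, 11 reached 1 FPKM in both control libraries, and their sum was 714 and 704 FPKM there and 1044 and 924 FPKM with GNE-987. The part of these marker lists in the values of the members was not tested. GATA1, the master transcription factor of red cell precursors, was at 124 and 122 FPKM in control cells, KLF1 at 85.2 and 85.9 FPKM and the fetal globin gene HBG1 at 42.3 and 44.8 FPKM. MPO and ELANE, defining genes of promyelocytes, were thus at or near 0 in the control libraries, against the label. The cells are therefore called the libraries labelled NB4 here. Recovered reads on genes numbered between 18758702 and 18966725 in the control libraries and between 12005444 and 12499960 in the GNE-987 libraries, so values with GNE-987 rest on fewer reads. The totals to which the deposited FPKM were scaled, worked out from the same steps, were 23024008 and 22120716 in the control libraries, above their reads on genes, and 8360484 and 8826050 in the GNE-987 libraries, below them.

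Heme is an iron-holding ring that carries oxygen in hemoglobin and electrons in the respiratory chain and in many enzymes. Its synthesis begins inside mitochondria, where ALA synthase joins glycine to succinyl-CoA, continues in the cytosol, and returns to mitochondria for the last oxidations and for the insertion of iron. ALA synthase is the rate-limiting enzyme and exists as a housekeeping form, encoded by ALAS1, and an erythroid form, encoded by ALAS2. Most heme of the body is made in red cell precursors, where GATA1 is known to drive several of these genes.

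All 9 members passed the filter on low values, which asked for 0.5 FPKM or more on average. FPKM is scaled by gene length, and levels within a library are set side by side on that basis. The length that gave whole reads was 9532 bases for UROS and 4607 for PPOX, against 1336 and 1733 in their canonical transcripts. The order of the members therefore depends in part on the length used and is given for FPKM only. In control cells UROD had by far the highest level, with a mean of 105 FPKM, followed by ALAS1 at 18.9, SLC25A38 at 14.7, CPOX at 13.5 and FECH at 12.7 FPKM. ALAS2 at 5.40 and ALAD at 5.38 FPKM overlapped each other between libraries, and UROS at 3.66 and PPOX at 3.34 FPKM were lowest. With GNE-987 the order at the top was UROD at 99.0, ALAS1 at 29.7, ALAS2 at 12.9 and FECH at 11.7 FPKM, then CPOX at 9.75 and ALAD at 9.24 FPKM, whose ranges overlapped. UROS followed at 4.04, SLC25A38 at 2.51 and PPOX at 1.79 FPKM. SLC25A38 thus moved from the third to the eighth place, and ALAS2 from the sixth to the third.

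**Figure D1:**
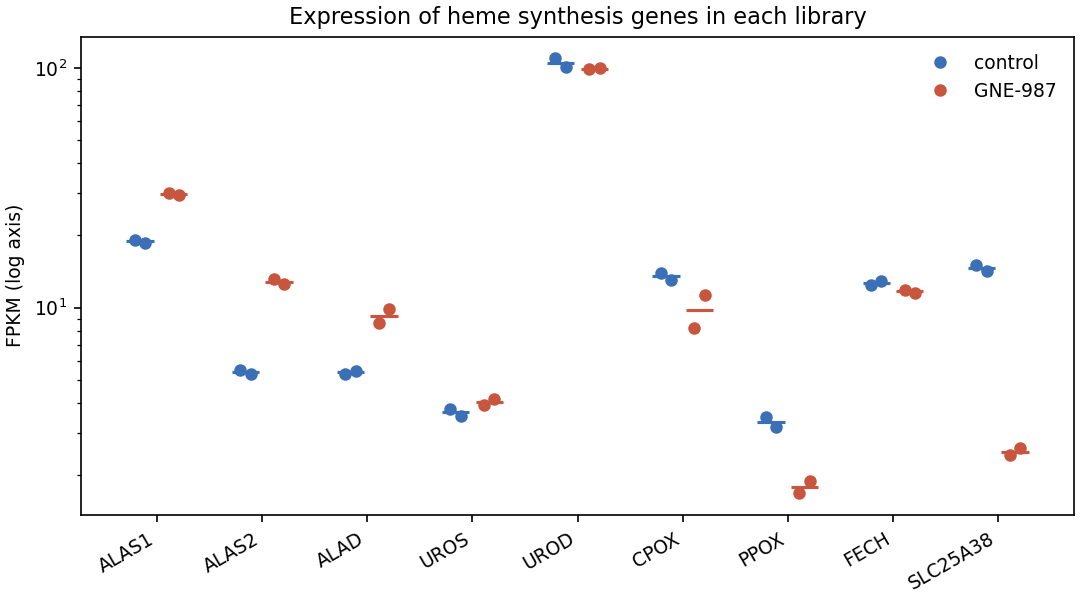
FPKM (log axis) of each of the 9 members in each library, with control libraries in blue and GNE-987 libraries in red. Points are single libraries and horizontal lines are the means of 2 libraries. In the deposited scaling ALAS1, ALAS2 and ALAD lie higher with GNE-987, SLC25A38 and PPOX lower, and UROD lies between 98.6 and 109 FPKM. If scaled to GAPDH, ALAS1, ALAS2 and ALAD lie lower. With scaling to recovered reads, the log2 fold change is -0.11 for ALAS1 and 0.01 for ALAD.

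To ask which members changed with GNE-987, expression was compared on the log2(FPKM + 0.1) scale with limma across 16668 genes, which understates the change of low genes. The study's methods ask for P under 0.05 with a fold above 2 or below 0.5, and do not say whether P was adjusted. With P taken before or after adjustment, 1 member was higher (ALAS2), 1 was lower (SLC25A38) and 7 passed neither. Changes of this size were common in these libraries. Among all genes tested 33.6% were called higher and 24.9% lower, and among protein-coding genes, the kind to which all members belong, 24% were called higher and 31.7% lower. The median log2 fold change of the members was -0.09, beside 0.17 over all genes tested and -0.29 over the protein-coding genes. Without the fold threshold, 5 of the 9 members had an adjusted P value under 0.05, 3 of them higher (ALAS1, ALAS2 and ALAD) and 2 lower (PPOX and SLC25A38), where 77.6% of all genes tested passed the same threshold in either direction. For each of the 9 members the GNE-987 libraries lay on 1 side of both control libraries, as they did for 89.1% of all genes tested and 93.3% of the protein-coding genes, so nothing is read from it about the members.

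The sign of several changes depended on how the libraries were put on a common scale. With scaling by recovered reads in place of the deposited totals, log2 fold changes shift by -0.77, since the deposited totals lie below the reads on genes in the GNE-987 libraries and above them in the control libraries. With scaling to GAPDH, the median of all genes fell by 1.77. GAPDH itself was at 398 and 432 FPKM in control cells and at 1501 and 1499 FPKM with GNE-987, so that scaling to it lowers the log2 fold change of every other gene. Relative to the median of all genes tested, ALAS1, ALAS2 and ALAD were above it and UROD, CPOX, PPOX and SLC25A38 below it under each of 6 scalings, while UROS and FECH lay close to it on either side. Against the median of protein-coding genes alone, ALAS1, ALAS2 and ALAD stayed above and PPOX and SLC25A38 below under each of 6 scalings, UROS and FECH were above, and UROD and CPOX changed sides, with UROD between -0.42 and 0.21. The distance from the median of all genes ran from 1.00 to 1.44 for ALAS2 and from -2.74 to -2.44 for SLC25A38 on the log2 scale. The 6 scalings were the deposited one, GAPDH, quantile normalization, median-ratio scaling, recovered reads and limma-voom on these reads. They are not 6 separate checks. Median-ratio scaling left the deposited values almost as they were, with a median over all genes of 0.17 in both. Limma-voom used the same reads as scaling to recovered reads, with medians of -0.57 and -0.56.

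**Figure D2:**
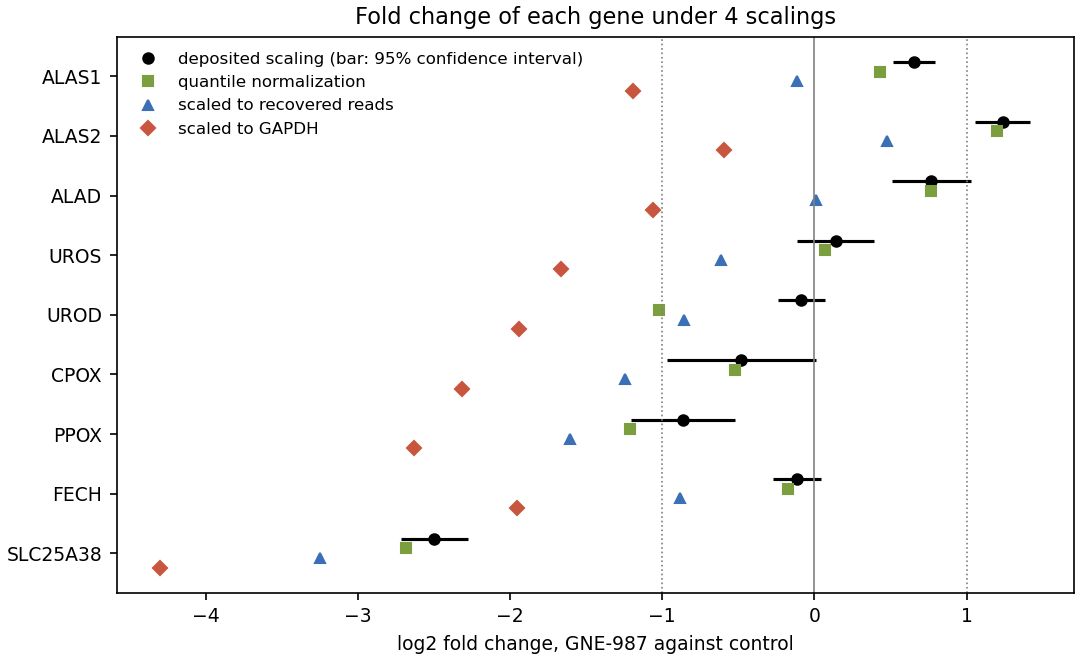
Log2 fold change of each member, GNE-987 against control, under 4 scalings. Black points with bars are the deposited scaling with 95% confidence intervals from limma, dotted lines mark a fold change of 2 in either direction. SLC25A38 is furthest left and ALAS2 furthest right under each of the 4 scalings, while scaling to GAPDH turns the sign of ALAS1, ALAS2, ALAD and UROS and moves the set to between -4.30 (SLC25A38) and -0.60 (ALAS2).

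ALAS1 and ALAS2 encode the 2 forms of ALA synthase. The erythroid gene ALAS2 (ENSG00000158578) lies on the minus strand of chromosome X of GRCh38, from 55009055 to 55030977, with 11 exons in its canonical transcript. Control cells had 5.47 and 5.32 FPKM of it (269 and 251 reads), and treated cells 13.2 and 12.5 FPKM (235 and 236 reads). Both GNE-987 libraries were well above both control libraries. The means were 5.40 ± 0.112 and 12.9 ± 0.454 FPKM (SD, n = 2), a 2.38-fold rise, with a log2 fold change of 1.24 and a standard error of 0.0642 (adjusted P value 0.000387 by limma). This call was lost with scaling to recovered reads, where the log2 fold change was 0.48, and the sign turned with scaling to GAPDH, where it was -0.60. Among all genes tested, 66.9% had a smaller or more negative log2 fold change than ALAS2. Its last exon shares 3 bases with that of APEX2, a DNA repair gene on the opposite strand, which fell from 10.6 and 10.4 FPKM to 3.83 and 4.12 FPKM.

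The housekeeping gene ALAS1 (ENSG00000023330) lies on the plus strand of chromosome 3, from 52198086 to 52214327, with 12 exons. It was at 19.2 and 18.5 FPKM in control cells (1123 and 1039 reads), against 30.1 and 29.4 FPKM with GNE-987 (639 and 657 reads). The groups did not overlap, and the means were 18.9 ± 0.503 and 29.7 ± 0.555 FPKM (SD, n = 2). On the log2 scale the difference was 0.65, its standard error 0.0487 (adjusted P value 0.000832 by limma), and the 1.58-fold difference was under the fold threshold. It was -0.11 with scaling to recovered reads and -1.19 with scaling to GAPDH. The annotated gene within 5 kb of its 3′ end, ENSG00000280003 on the opposite strand, was below the filter, with 0.397 FPKM in GNE-987 replicate 2 as its highest value.

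A ratio of genes within a library does not change with a scaling by 1 factor per library. The ratio of ALAS2 to ALAS1 was 0.285 and 0.287 without GNE-987 and 0.437 and 0.427 with it. The erythroid form thus gained on the housekeeping form in both treated libraries, by 1.51-fold between the group means. With quantile normalization, which does change ratios, the fitted log2 fold changes differed by 0.77, or 1.71-fold, against 0.58 in the deposited scaling. ALAS1 kept the higher level in every library. With 2 libraries per group an exact two-sided permutation test cannot go below 1 in 3, so the ratio is given without a test.

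ALAS2 mRNA is known to carry an iron responsive element in its 5′ untranslated region, a hairpin bound by iron regulatory proteins, which hold back translation when iron is scarce. The loop letters CAGTG with a C standing before them and 5 bases in between were found in the canonical 5′ untranslated region of ALAS2 and of none of the other 8 members. Of 19441 canonical 5′ untranslated regions of protein-coding genes, 6.57% hold these letters, so that they alone do not make an element. The stretch is shown because ALAS2 alone among the members held these letters, and no other sequence feature of these regions was compared. It lies on chrX:55030944-55030971, minus strand of GRCh38, within exon 1, and the capitals mark the loop.
ALAS2 exon 1: cattcgttcgtcctCAGTGCagggcaac

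Promoters of 8 of the 9 members, all but UROS, were read from RefSeq (GRCh38.p14) and the 250 bases before the start were searched on both strands for 4 GATA words, namely AGATAA or AGATAG as well as TGATAA or else TGATAG. Before the first listed start, 2 of 8 members (ALAS2 and CPOX) held a word, where 22.9% of 27305 genes did so, which is close to the members' share. ALAD and PPOX held a word only before the second of 2 listed starts, at 68 and 63 bases from it. ALAS1, UROD, FECH and SLC25A38 had none in this window, which says nothing about binding of the factor. The promoters of both ALA synthase genes and of SLC25A38 are shown because these genes stand at the first step of the pathway, as its enzymes and the carrier of its substrate, and that of CPOX because it holds 2 words. Capitals mark a GATA word, here TTATCT, the reverse strand of AGATAA. The word of ALAS2 begins 127 bases before the start, and those of CPOX 207 and 125 bases before it. The windows are chr3:52197833-52198082 (plus strand) for ALAS1, chrX:55030978-55031227 (minus strand) for ALAS2, chr3:39383120-39383369 (plus strand) for SLC25A38 and chr3:98593612-98593861 (minus strand) for CPOX.
ALAS1: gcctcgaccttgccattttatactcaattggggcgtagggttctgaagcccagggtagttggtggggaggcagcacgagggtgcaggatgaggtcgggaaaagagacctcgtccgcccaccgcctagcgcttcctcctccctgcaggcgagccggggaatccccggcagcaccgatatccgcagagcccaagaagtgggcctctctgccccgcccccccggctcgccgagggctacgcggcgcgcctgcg
ALAS2: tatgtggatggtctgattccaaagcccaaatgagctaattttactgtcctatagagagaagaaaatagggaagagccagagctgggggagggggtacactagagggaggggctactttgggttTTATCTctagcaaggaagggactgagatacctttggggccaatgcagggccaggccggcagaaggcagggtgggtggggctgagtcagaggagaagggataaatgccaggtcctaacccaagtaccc
SLC25A38: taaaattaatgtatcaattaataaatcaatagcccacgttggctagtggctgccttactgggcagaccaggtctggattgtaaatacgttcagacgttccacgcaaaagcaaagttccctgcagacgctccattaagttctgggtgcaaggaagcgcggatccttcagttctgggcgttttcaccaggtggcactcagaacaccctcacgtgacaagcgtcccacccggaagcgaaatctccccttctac
CPOX: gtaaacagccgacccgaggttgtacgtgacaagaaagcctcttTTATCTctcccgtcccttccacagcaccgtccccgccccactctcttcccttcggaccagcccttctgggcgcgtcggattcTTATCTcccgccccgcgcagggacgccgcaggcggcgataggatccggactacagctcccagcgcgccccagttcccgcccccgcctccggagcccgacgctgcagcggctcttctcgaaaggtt
The GC content of these windows was 67.2% for ALAS1, 52.8% for ALAS2, 49.6% for SLC25A38 and 65.6% for CPOX. The part of GATA words in the values of the members was not tested. ALAS2 and CPOX, which share the word TTATCT before their only listed start, had log2 fold changes of 1.24 and -0.48. The 95% confidence interval of CPOX ran from -0.97 to 0.01. ALAS1 and SLC25A38, which hold none of the words, had log2 fold changes of 0.65 and -2.50.

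SLC25A38 brings glycine into mitochondria for ALA synthase and is mutated in an inherited sideroblastic anemia. It (ENSG00000144659) lies on the plus strand of chromosome 3, from 39383370 to 39397351, with 7 exons. Control cells had 15.1 and 14.2 FPKM of it (939 and 853 reads), and treated cells 2.43 and 2.59 FPKM (55 and 62 reads). The treated libraries lay far below the control libraries, with means of 14.7 ± 0.580 against 2.51 ± 0.116 FPKM (SD, n = 2), a 5.83-fold difference. The log2 fold change was -2.50, its standard error 0.0774 (adjusted P value 0.000181 by limma). SLC25A38 was called lower under all 16 alternatives, several of which leave its log2 fold change as it was, with values down to -4.30. Only 3.98% of all genes tested had a more negative log2 fold change. Its ratio to ALAS1 within a library was 0.783 and 0.769 in control cells and 0.0806 and 0.0884 with GNE-987, a 9.18-fold difference between the means. Its ratio to ALAS2 was 2.75 and 2.68 against 0.184 and 0.207. In control cells the carrier was thus above ALAS2 and in treated cells below it, in every library.

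ALAD joins 2 ALA molecules into porphobilinogen in the cytosol. The gene (ENSG00000148218, chromosome 9, 113386312 to 113401290, minus strand, 12 exons) was at 5.30 and 5.45 FPKM in control cells (608 and 601 reads), against 8.64 and 9.85 FPKM with GNE-987 (360 and 433 reads). Both treated libraries were higher, with means of 5.38 ± 0.108 and 9.24 ± 0.851 FPKM (SD, n = 2). On the log2 scale the difference was 0.77, its standard error 0.0916 (adjusted P value 0.00281 by limma), without reaching the fold threshold, and it was 0.01 with scaling to recovered reads and -1.06 with scaling to GAPDH.

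UROS closes the ring, forming uroporphyrinogen III. Its gene (ENSG00000188690, chromosome 10, 125784980 to 125823258, minus strand, 10 exons) was at 3.77 and 3.55 FPKM in control cells (828 and 748 reads), against 3.92 and 4.17 FPKM with GNE-987 (312 and 351 reads). The groups lay close together without overlapping, and the log2 fold change of 0.14 had a 95% confidence interval from -0.11 to 0.39 and an adjusted P value of 0.223 by limma. It turned to -0.61 with scaling to recovered reads and to -1.67 with scaling to GAPDH. The microRNA gene MIR4484, which lies inside UROS on the opposite strand and shares no exon base with it, was above 0 in 1 control library only, at 0.523 FPKM.

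UROD removes carboxyl groups from uroporphyrinogen and was the most strongly expressed member in every library. The gene (ENSG00000126088, chromosome 1, 45010950 to 45015575, plus strand, 10 exons) was at 109 and 101 FPKM in control cells (7319 and 6494 reads), against 98.6 and 99.5 FPKM with GNE-987 (2396 and 2553 reads). The treated libraries were below the lower control library by less than the distance between the control libraries. The log2 fold change of -0.09 had a 95% confidence interval from -0.24 to 0.07 and an adjusted P value of 0.222 by limma. It was -0.86 with scaling to recovered reads, under the fold threshold, and passed both thresholds at -1.02 with quantile normalization and at -1.94 with scaling to GAPDH. HECTD3 on the opposite strand shares 375 exon bases with isoforms of UROD and none with its canonical transcript. It was at 16.0 and 15.7 FPKM in control cells and at 11.4 and 12.6 FPKM with GNE-987. ZSWIM5, which ends 824 bases past the 3′ end of UROD, stayed under 1 FPKM in each library, with 0.95 as its highest value.

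CPOX catalyses an oxidative decarboxylation in the space between the mitochondrial membranes. The gene (ENSG00000080819, chromosome 3, 98579446 to 98593648, minus strand, 7 exons) was at 14.0 and 12.99 FPKM in control cells (1042 and 929 reads), against 8.25 and 11.3 FPKM with GNE-987 (223 and 321 reads). Both treated libraries were lower, but they differed from each other more than those of any other member. The log2 fold change was -0.48, its standard error 0.173, with a 95% confidence interval from -0.97 to 0.01 and an adjusted P value of 0.0655 by limma. It was -0.26 without GNE-987 replicate 1 and -0.70 without replicate 2. With scaling to recovered reads it was -1.24 and passed both thresholds. The lncRNA gene ENSG00000286602 past its 3′ end was not analysed here. ENSG00000285635, a gene on the same strand that shares 163 exon bases with CPOX, was above 0 in 1 library only, at 0.404 FPKM with GNE-987.

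PPOX makes protoporphyrin IX. The gene (ENSG00000143224, chromosome 1, 161166056 to 161178013, plus strand, 13 exons) was at 3.50 and 3.19 FPKM in control cells (371 and 325 reads), against 1.69 and 1.89 FPKM with GNE-987 (65 and 77 reads), the fewest of any enzyme in the treated libraries. The groups did not overlap, with means of 3.34 ± 0.218 and 1.79 ± 0.146 FPKM (SD, n = 2). On the log2 scale the difference was -0.87, its standard error 0.121 (adjusted P value 0.00444 by limma), under the fold threshold. It passed that threshold with quantile normalization at -1.21 and with scaling to recovered reads at -1.60. B4GALT3, a galactosyltransferase gene on the opposite strand, shares 1118 exon bases with isoforms of PPOX and none with its canonical transcript, and it fell from 16.9 and 16.6 FPKM to 1.63 and 2.80 FPKM. Whether the counting used strand is not given in the sources used here, so reads of the shared stretch cannot be assigned, and their part in the PPOX values was not tested. The lncRNA genes ENSG00000290115 and ENSG00000287780, which overlap PPOX and SLC25A38, were not analysed here.

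FECH inserts iron into protoporphyrin IX and completes heme. The gene (ENSG00000066926, chromosome 18, 57544377 to 57586732, minus strand, 11 exons) was at 12.5 and 12.9 FPKM in control cells (2566 and 2552 reads), against 11.9 and 11.5 FPKM with GNE-987 (888 and 908 reads). In the deposited scaling the log2 fold change was -0.12, with a 95% confidence interval from -0.27 to 0.04 and an adjusted P value of 0.129 by limma. It was -0.88 with scaling to recovered reads, under the fold threshold, and -1.95 with scaling to GAPDH, past both thresholds. Within a library, FECH was at 0.648 and 0.696 times the level of ALAS1 in control cells and at 0.394 and 0.392 times with GNE-987. Its ratio to ALAS2 was 2.28 and 2.43 in control cells and 0.901 and 0.918 with GNE-987. Relative to both forms of ALA synthase FECH was thus lower in both treated libraries. It stood further from the level of ALAS1 and closer to that of ALAS2.

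Some genes outside the pathway had nearly the same values across the 4 libraries after each gene was centred on its own mean. Among 3404 protein-coding genes averaging 10 FPKM or more, those nearest to ALAS2 were SNF8 and NACA, at distances of 0.00778 and 0.0142 on the log2 scale. PDAP1 and VPS51 were nearest to ALAS1, at 0.0239 and 0.0318, and RHOBTB3 and RTL10 to FECH, at 0.0285 and 0.0293. A likeness over 4 libraries in 2 groups is a description only.

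The makeup of the set differed between the groups, while in the deposited scaling its sum overlapped. The summed FPKM of the 9 members was 188 and 177 in control cells and 179 and 183 with GNE-987, in the deposited scaling. UROD made up 58.1% and 57.0% of this sum in control cells and 55.2% and 54.5% with GNE-987. The share of ALAS1 went from 10.2% and 10.5% to 16.9% and 16.1%, and that of ALAS2 from 2.91% and 3.0% to 7.37% and 6.86%. The share of SLC25A38 went from 8.01% and 8.04% to 1.36% and 1.42%, and that of PPOX from 1.86% and 1.80% to 0.945% and 1.04%. A scaling by 1 factor per library leaves these shares as they are, while quantile normalization does not. The sum does move with such a factor. With recovered reads the difference between the groups shifts by -0.77 on the log2 scale, so the overlap is given for the deposited scaling only. The size of each share also depends on the gene length used for each member. In RNA from a whole culture, fewer cells that express a gene and less RNA per cell cannot be told apart.

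**Figure D3:**
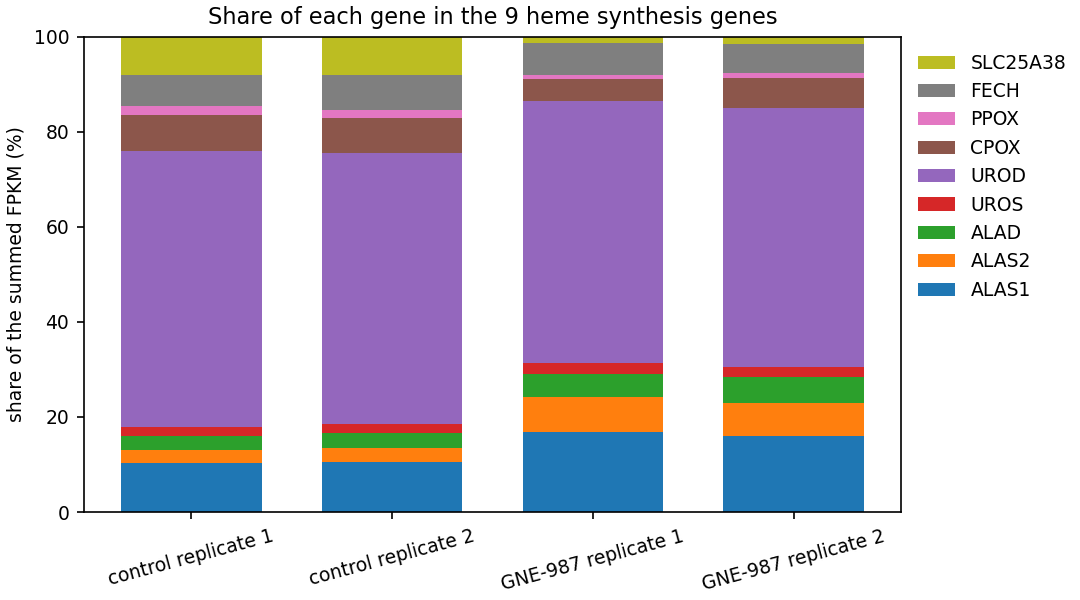
Share (percent) of each member in the summed FPKM of the 9 heme synthesis genes, 1 bar per library. UROD takes over 54% in every bar, ALAS1 and ALAS2 take larger shares with GNE-987, and SLC25A38 goes from 8.01% and 8.04% to 1.36% and 1.42%.

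Genes around the pathway were described as 5 lists with 51 genes in all, of which 46 were tested, 4 were called higher and 10 lower. All 51 are protein-coding, and among protein-coding genes tested 24% were called higher and 31.7% lower (33.6% and 24.9% among all genes tested). This is 1 of 11 tested genes higher and 3 lower among 13 genes of porphyrin and iron transport, 1 of 3 higher and 0 lower among 4 genes of heme breakdown, and 1 of 8 higher and 1 lower in glycine and succinyl-CoA supply. Of 14 genes of iron-sulfur cluster assembly 13 were tested, with 0 higher and 2 lower, and of 12 regulators 11 were tested, with 1 higher and 4 lower. The median log2 fold changes were -0.22, 0.29, 0.03, -0.29 and -0.43 in this order, beside 0.17 over all genes tested and -0.29 over the protein-coding genes. As with the members, scaling moved these counts. With scaling to recovered reads 0 were called higher and 23 lower, by limma. The 4 genes called higher (SLC25A39, BLVRB, OGDH and NRF1) kept a positive sign in 5 of the 6 scalings and turned to between -0.80 and -0.38 with scaling to GAPDH, while the 10 called lower were lower under each of them.

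**Figure D4:**
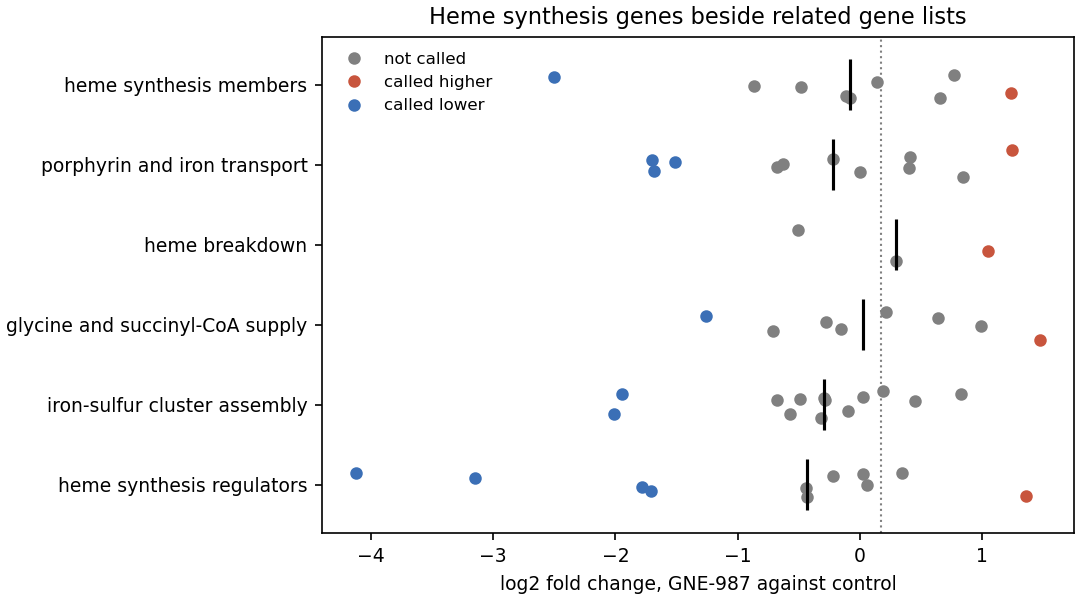
Log2 fold change, GNE-987 against control, of each tested gene of the 9 members and of the 5 related lists. Red points were called higher, blue points lower and grey points neither, black bars are list medians, and the dotted line is the median of all genes tested (0.17). The regulators reach furthest to the left, with NFE2 at -4.12 and GATA1 at -3.15.

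In transport, SLC25A39, a mitochondrial carrier for glutathione, rose from 60.05 and 59.31 FPKM to 146 and 137 FPKM. SLC48A1, which moves heme out of endosomes and lysosomes, fell from 8.91 and 8.86 FPKM to 2.43 and 2.92 FPKM, and the heme chaperone gene PGRMC2 from 7.75 and 6.64 FPKM to 2.69 and 1.74 FPKM. The mitochondrial iron importer gene SLC25A37, named after its values were seen as the remaining call of the list, fell from 13.3 and 14.0 FPKM to 5.05 and 4.41 FPKM. On the supply side, OGDH, a subunit of the enzyme that makes succinyl-CoA, rose from 28.5 and 28.6 FPKM to 79.1 and 79.2 FPKM, a log2 fold change of 1.47. SUCLA2, a subunit of succinyl-CoA synthetase, fell from 3.52 and 3.83 FPKM to 1.23 and 1.75 FPKM. In iron-sulfur cluster assembly, ISCA2 had a log2 fold change of -1.95, on 15 and 16 reads with GNE-987. In the deposited scaling, precursor supply and mitochondrial import thus held genes called in each direction.

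Heme breakdown begins with heme oxygenase. The inducible form HMOX1 was listed at 0 in each control library, against 0.497 and 0.377 FPKM with GNE-987, on 10 and 8 reads, and was below the filter. The constitutive form HMOX2 was at 14.3 and 15.7 FPKM in control cells and at 17.3 and 19.6 FPKM with GNE-987, with an adjusted P value of 0.0471 by limma. Its log2 fold change of 0.29 turned to -0.47 with scaling to recovered reads and to -1.55 with scaling to GAPDH. Of the biliverdin reductases, BLVRB rose from 78.8 and 72.9 FPKM to 161 and 153 FPKM in the deposited scaling, a log2 fold change of 1.05. That value was 0.28 with scaling to recovered reads, 0.12 with quantile normalization and -0.80 with scaling to GAPDH. BLVRA was at 26.3 and 24.2 FPKM in control cells and at 18.0 and 17.4 FPKM with GNE-987, a log2 fold change of -0.51 that did not reach the fold threshold. With scaling to recovered reads BLVRA was at -1.28, past that threshold.

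Among the regulators, the erythroid factor gene GATA1 fell from 124 and 122 FPKM to 15.1 and 12.5 FPKM and NFE2 from 58.6 and 52.9 FPKM to 3.25 and 2.98 FPKM. The further calls of this list were KLF1, which encodes an erythroid factor, with a log2 fold change of -1.71, and CLPX, named after its values were seen, with -1.78. CLPX encodes a mitochondrial unfoldase that acts on ALA synthase. NRF1, a factor for nuclear genes of mitochondria that is known to act on ALAS1, rose from 5.30 and 5.46 FPKM to 14.8 and 13.2 FPKM. GATA1, KLF1 and NFE2 fell under each of 6 scalings, in the same libraries in which ALAS2 lay higher (lower only if scaled to GAPDH), and the part of these factors in the values of the members was not tested.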

How the data were processed

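RNA-seq libraries were made from total RNA with an Illumina TruSeq kit. The authors filtered the reads and mapped them with HISAT2 2.0.5 to hg38 (version and build from the submitters' processing notes), and deposited gene-level expression in FPKM. The counting program, the annotation and the library totals used for scaling are not given in the sources used here. Of 58735 identifiers, 58207 (99.1%) are in GENCODE release 44 on GRCh38, the same build. Groups came from the sample labels, and dose and time from the study's figure legends.

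FPKM is not a count, so log2(FPKM + 0.1) values of genes averaging 0.5 FPKM or more entered limma 3.58.1 in R 4.3.3, with empirical Bayes and an intensity trend, no replicate block and a two-sided test. Benjamini-Hochberg adjustment ran across all 16668 genes. Reads were recovered as whole multiples of the value of 1 read (tolerance 0.01), at the annotated exon length for 53.4% of 32627 genes and otherwise at the nearest whole length that gave whole reads in each library. Of the 9 members, this held at the annotated length for ALAS1, and the reads of the others are less certain by a common factor. Read recovery and the fit were tested on simulated data.

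The members and the gene lists were chosen with earlier results of these data known. Named in the text were all members, the heme breakdown genes, the 2 largest increases and the 2 largest decreases called in each other list, genes overlapping a member or within 5 kb of its 3′ end, the 2 genes nearest to ALAS1, ALAS2 and FECH, and marker genes, of which some that this rule names are not reported here. Of 7 megakaryocyte markers, 0 reached 1 FPKM in both control libraries. The alternatives were other pseudocounts, filters, scalings and thresholds, limma-voom on recovered reads, a replicate block and leaving out each library.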

Additional observations from a re-analysis of the deposited data

How the results depend on the processing

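Of the 16 alternatives, scaling to GAPDH, scaling by recovered reads, limma-voom and quantile normalization changed the members' counts. Over all genes, 5602 were called higher and 4148 lower in the deposited scaling, against 3031 and 9738 with scaling to GAPDH, 4188 and 6627 by recovered reads, 4286 and 6710 with limma-voom, 4235 and 5464 with quantile normalization, and 8757 and 5146 without a filter on low values. The cause of these differences was not tested. With scaling to GAPDH, 0 members were called higher and 8 lower, and 0 and 41 of the other pathway genes. With scaling by recovered reads and with limma-voom on these reads, 0 members were called higher and 3 lower, and 0 and 23 of the other genes. With quantile normalization 3 members were called lower, and 1 of the other genes higher. The sign turned with scaling to GAPDH for ALAS1 (-1.19), ALAS2 (-0.60), ALAD (-1.06) and UROS (-1.67). It also turned for ALAS1 (-0.11) and UROS (-0.61) with scaling to recovered reads, and for both with limma-voom (-0.11 and -0.62). SLC25A38 kept its call under every alternative run, of which median-ratio scaling left the deposited values almost unchanged. Leaving out each library in turn gave 1 member higher and 1 lower each time, with log2 fold changes from 1.20 to 1.27 for ALAS2 and from -2.54 to -2.45 for SLC25A38, and 4 to 5 of the other genes higher and 10 lower. With 1 library left in a group, that library is assumed to vary like the others. With the replicate number as a block, 1 member was called higher and 1 lower, and same-numbered libraries shared only a number, with a correlation of 0.00537 between their deviations. The ratio of ALAS2 to ALAS1 was 1.51-fold higher from FPKM and from recovered reads, which are proportional for each gene, so that the value cannot differ. Depth limits PPOX and SLC25A38 most, at 55 to 77 reads per GNE-987 library.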
